A study of Mus musculus with 12 samples.

Results

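The 36 genes described here encode the folding machinery of the endoplasmic reticulum (ER) and the unfolded protein response that controls it: chaperones, disulfide isomerases, ER-associated degradation factors, stress sensors and their transcription factors. They were taken by symbol from the deposited liver table, which held 24033 distinct gene symbols, by a rule that names genes and no measured value, though the set was drawn up with earlier results of these data known. All 36 passed the filter on low values, among 12965 genes tested. The livers came from wild-type C57BL/6 female mice in 4 groups of 3 libraries: ovariectomized with dexamethasone, ovariectomized with PBS vehicle, intact with dexamethasone, and intact with PBS vehicle. Dexamethasone, a synthetic glucocorticoid, was given at 1 mg/kg and all livers were taken 6 h after treatment. Ovariectomy removes the main source of oestrogen and progesterone. The labels give neither the age of the mice nor the time since surgery, and whole liver was sequenced, so that fewer cells of a type and less RNA per cell cannot be told apart. Nor do they say whether each replicate library is its own mouse, and the p-values then cover only the spread among libraries.

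Hepatocytes secrete most plasma proteins and fold them in the ER. When unfolded protein builds up, 3 sensors in the ER membrane respond. IRE1 (Ern1) splices the Xbp1 transcript, ATF6 (Atf6) is cut to release a transcription factor, and PERK (Eif2ak3) slows translation while that of ATF4 (Atf4) goes on. XBP1 and ATF6 raise chaperone and degradation genes, and ATF4 raises amino acid and stress genes such as Ddit3, in what is called the integrated stress response. Splicing, cleavage and phosphorylation are not read by the gene-level values used here.

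To show what the promoters of these genes share, the windows from RefSeq (GRCm38.p6) were searched before the expression values are given. Each window is 300 bases long, 250 before the annotated start and 50 from it on, and 32 of the 36 members had one. The deposited values were made on another build (mm9), so the coordinates given with these sequences are those of GRCm38.p6 and were set against no value of the table. Every pair of 5-base words with 0 to 15 bases between them was counted on both strands, and 2 pairs occurred in at least 8 members. The more frequent among the members was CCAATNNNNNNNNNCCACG, in 10. The other, with 8 bases between CCAAT and GCCAC, was in 8 members, and over all windows it was the more common (47 against 39). It shares CCAAT and CCAC at the same spacing, but a site holds both pairs only where a G precedes CCACG. The 2 pairs therefore need not lie in the same members. These letters are known as the ER stress response element, which NF-Y and ATF6 bind. The 250 bases before the start are shown for Hspa5, Dnajc3 and Creld2, chaperone genes whose responses are described below. They run in the direction of the gene, with the fixed letters of the pair in capitals. In Creld2 the pair lies on the opposite strand, so its reverse complement appears.
Hspa5 (chr2:34771840-34772089, plus strand): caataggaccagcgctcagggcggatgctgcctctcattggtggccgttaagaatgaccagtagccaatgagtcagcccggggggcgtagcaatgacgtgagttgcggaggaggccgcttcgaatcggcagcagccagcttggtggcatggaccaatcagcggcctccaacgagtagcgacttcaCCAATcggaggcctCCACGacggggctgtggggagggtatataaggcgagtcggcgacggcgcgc
Dnajc3 (chr14:118937682-118937931, plus strand): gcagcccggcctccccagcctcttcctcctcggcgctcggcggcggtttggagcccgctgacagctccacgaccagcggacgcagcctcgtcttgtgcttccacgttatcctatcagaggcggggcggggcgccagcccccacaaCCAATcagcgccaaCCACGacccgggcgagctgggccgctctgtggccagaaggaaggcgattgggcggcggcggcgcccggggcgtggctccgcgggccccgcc
Creld2 (chr15:88819396-88819645, plus strand): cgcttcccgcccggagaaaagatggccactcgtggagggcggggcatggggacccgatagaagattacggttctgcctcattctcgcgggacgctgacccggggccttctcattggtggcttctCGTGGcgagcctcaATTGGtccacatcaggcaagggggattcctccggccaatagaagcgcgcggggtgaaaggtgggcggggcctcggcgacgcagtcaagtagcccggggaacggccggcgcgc

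The pair was found in 10 of the 32 members with a window (31.2%), against 0.119% of all 32841 windows and 0.194% of the 10325 tested genes that had one, or 20 genes. It was picked as the pair most shared by the members, so these shares are a description and no test. A match is a run of letters and was not measured as a bound site. The pair in each member is given 5′ to 3′ on the strand that carries CCAAT. The fixed letters are alike because the search required them, and the 9 bases between them were left free.
Hspa5 (chr2:34772025-34772043, plus strand): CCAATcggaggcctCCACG
Hsp90b1, farther from the start (chr10:86705638-86705656, minus strand): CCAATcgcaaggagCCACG
Hsp90b1, nearer the start (chr10:86705533-86705551, plus strand): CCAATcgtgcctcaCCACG
Dnajc3 (chr14:118937827-118937845, plus strand): CCAATcagcgccaaCCACG
Creld2 (chr15:88819520-88819538, minus strand): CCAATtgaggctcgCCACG
Pdia6 (chr12:17266491-17266509, plus strand): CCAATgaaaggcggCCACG
Ero1lb (chr13:12565682-12565700, minus strand): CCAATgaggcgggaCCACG
Calr (chr8:84847075-84847093, plus strand): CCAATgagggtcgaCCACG
Canx (chr11:50325800-50325818, minus strand): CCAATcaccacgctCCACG
Syvn1 (chr19:6046532-6046550, plus strand): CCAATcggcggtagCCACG
Derl3 (chr10:75893242-75893260, minus strand): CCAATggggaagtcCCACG

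**Figure D1:**
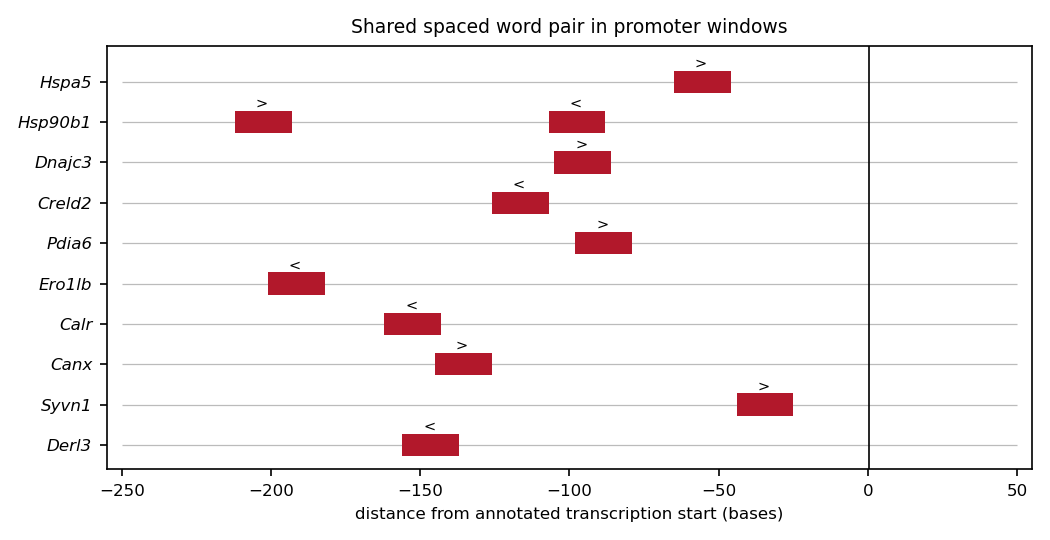
Position of the shared word pair in the promoter windows of the 10 members that held it, by distance in bases from the annotated transcription start (vertical line). Bars span the pair, and the arrowheads give its strand relative to the gene. Hsp90b1 held the pair on each strand, and that of Syvn1 lay nearest the start, at bases -44 to -26.

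Levels below are log2 values as deposited, one per library, and differences are on the same log2 scale, given ± SE as limma estimated them from 3 libraries in each group. The threshold was an adjusted p under 0.05 (Benjamini-Hochberg) over all genes tested. Library medians lay between 8.82 and 8.86. The root mean square difference between replicate libraries was 0.137 to 0.462 over the members, against 0.172 to 0.32 over all genes. Among the ovariectomized dexamethasone libraries, replicate 2 was the lowest for 32 of the 36 members and replicate 1 the highest for 26. Among the intact dexamethasone libraries, replicate 2 was the lowest for 26. Hepatocyte markers were high in every library (summed log2 level 22.10 to 22.44 over 8 genes). Alb alone was at 21.59 to 22.03 and carried most of that sum. Of 10 markers of the pancreatic acinar cell, a neighbouring secretory cell, 5 were listed at 0 and 4 lay below 0 in every library. The other acinar marker, Cela2a, was at 5.21 to 6.83 and passed in 0 of the comparisons.

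In ovariectomized females dexamethasone raised the ER chaperones and their cofactors almost as a block. Of 9 such members 8 rose, 0 fell, and the median log2 fold change was 0.57, against 0.00 over all genes tested. Over all 36 members 13 rose (36.1%) and 3 fell (8.33%), against a background of 21.3% and 19.4% of genes tested, with a median of 0.15. In either direction 44.4% of the members passed, close to the background of 40.7%, so the count alone does not set the members apart and the direction carries the description. The groups did not overlap for 13 members upward and 4 downward, against 28.1% and 26.5% of genes tested. Without replicate 1 of ovariectomized dexamethasone 9 members rose, and without replicate 2 the number was 17.

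Creld2, a cysteine-rich ER protein induced by ER stress, had the largest rise of the 36 in these females. Its levels were 10.46, 10.02 and 10.20 in ovariectomized dexamethasone livers, against 9.25, 9.41 and 9.11 in ovariectomized vehicle livers. Every dexamethasone library lay above every vehicle library, and the change was 0.97 ± 0.12, limma adjusted p = 0.000131, or 1.96-fold. Manf, a secreted ER protein that binds the chaperone BiP, stood at 11.76, 11.10 and 11.40 with dexamethasone, against 10.46, 10.43 and 10.52 with vehicle. The groups did not overlap (0.95 ± 0.15, limma adjusted p = 0.000591), and the dexamethasone libraries were spread more widely than the vehicle ones.

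Hspa5 encodes BiP, the Hsp70 of the ER lumen and the classical readout of ER stress. It was at 14.61, 14.20 and 14.40 in ovariectomized dexamethasone livers, against 13.67, 13.70 and 13.70 in ovariectomized vehicle livers. The 3 vehicle libraries were nearly identical and all lay below the dexamethasone ones (0.72 ± 0.1, limma adjusted p = 0.000342, 1.64-fold). Hyou1, a large chaperone that exchanges nucleotide on BiP, had 12.40, 11.77 and 12.15 with dexamethasone, against 11.29, 11.46 and 11.24 with vehicle (0.78 ± 0.15, limma adjusted p = 0.0015). Its lowest dexamethasone library still exceeded the highest vehicle library.

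The J-domain partners of BiP rose too. Dnajb11, which hands unfolded protein to BiP, had 11.54, 11.24 and 11.40 in ovariectomized dexamethasone livers, against 10.84, 10.93 and 10.90 in ovariectomized vehicle livers (0.50 ± 0.067, limma adjusted p = 0.000192). Dnajb9 rose by 0.57 ± 0.1, limma adjusted p = 0.00137, and Dnajc3, a luminal cochaperone, by 0.42 ± 0.061, limma adjusted p = 0.000324. For these 3 genes the groups did not overlap, and each call held in every alternative fit. Hsp90b1, the Hsp90 of the ER, rose least (0.22 ± 0.077, limma adjusted p = 0.0381). Its call was lost in 7 of the 12 fits that left out 1 library, with values of 0.17 to 0.26, and under quantile normalization (0.09, adjusted p = 0.418). Sdf2l1, a partner of Dnajb11, was the chaperone member that did not pass. Its dexamethasone libraries ran from 8.62 to 9.48 and enclosed the vehicle range of 8.72 to 8.99 (0.24 ± 0.17, limma adjusted p = 0.286, 95% interval -0.13 to 0.61).

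In intact females fewer of the same chaperone list passed. Of 9 members 4 rose and 0 fell, against a background of 22.8% of genes tested rising, and the list median was 0.28. The difference of responses between gonadal states passed for 3 of the 9 (33.3%), Hspa5, Dnajb9 and Dnajc3, against 15.3% of genes tested. Only Dnajc3 kept that call in every alternative, and the other chaperone members did not pass that test. Creld2 was at 10.05, 9.74 and 10.06 in intact dexamethasone livers, against 9.20, 9.26 and 9.38 in intact vehicle livers (0.67 ± 0.12, limma adjusted p = 0.000812). Manf was at 11.67, 11.21 and 11.44 with dexamethasone, against 10.32, 10.62 and 10.61 with vehicle (0.92 ± 0.15, limma adjusted p = 0.000477). Both genes showed separate groups in each gonadal state. Dnajb11 had 11.36, 11.28 and 11.38 with dexamethasone, against 10.95, 10.91 and 10.99 with vehicle (0.39 ± 0.067, limma adjusted p = 0.00066). Hspa5 had 14.31, 14.04 and 14.32 with dexamethasone, against 13.88, 13.89 and 14.07 with vehicle. The lowest dexamethasone library fell below the highest vehicle library, and the rise (0.28 ± 0.1, limma adjusted p = 0.0441) was not called in 8 of 12 fits that left out 1 library, over which it ran from 0.23 to 0.37 with adjusted p up to 0.139.

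The other chaperone members did not pass in intact females. Hyou1 differed by 0.23 ± 0.15, limma adjusted p = 0.215, with an interval of -0.09 to 0.55, and Sdf2l1 by 0.32 ± 0.17, limma adjusted p = 0.141. Dnajb9 (0.06 ± 0.1), Dnajc3 (-0.07 ± 0.061) and Hsp90b1 (-0.08 ± 0.077) had estimates near 0. Over all 36 members in intact females, 10 rose (27.8%) and 6 fell (16.7%), against a background of 22.8% and 25.9%, and the median was -0.02. In either direction 44.4% passed against 48.8% of all genes, so that the members were called about as often as other genes. The groups did not overlap for 11 members upward and 7 downward, against 26.9% and 28.6% of genes tested.

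**Figure D2:**
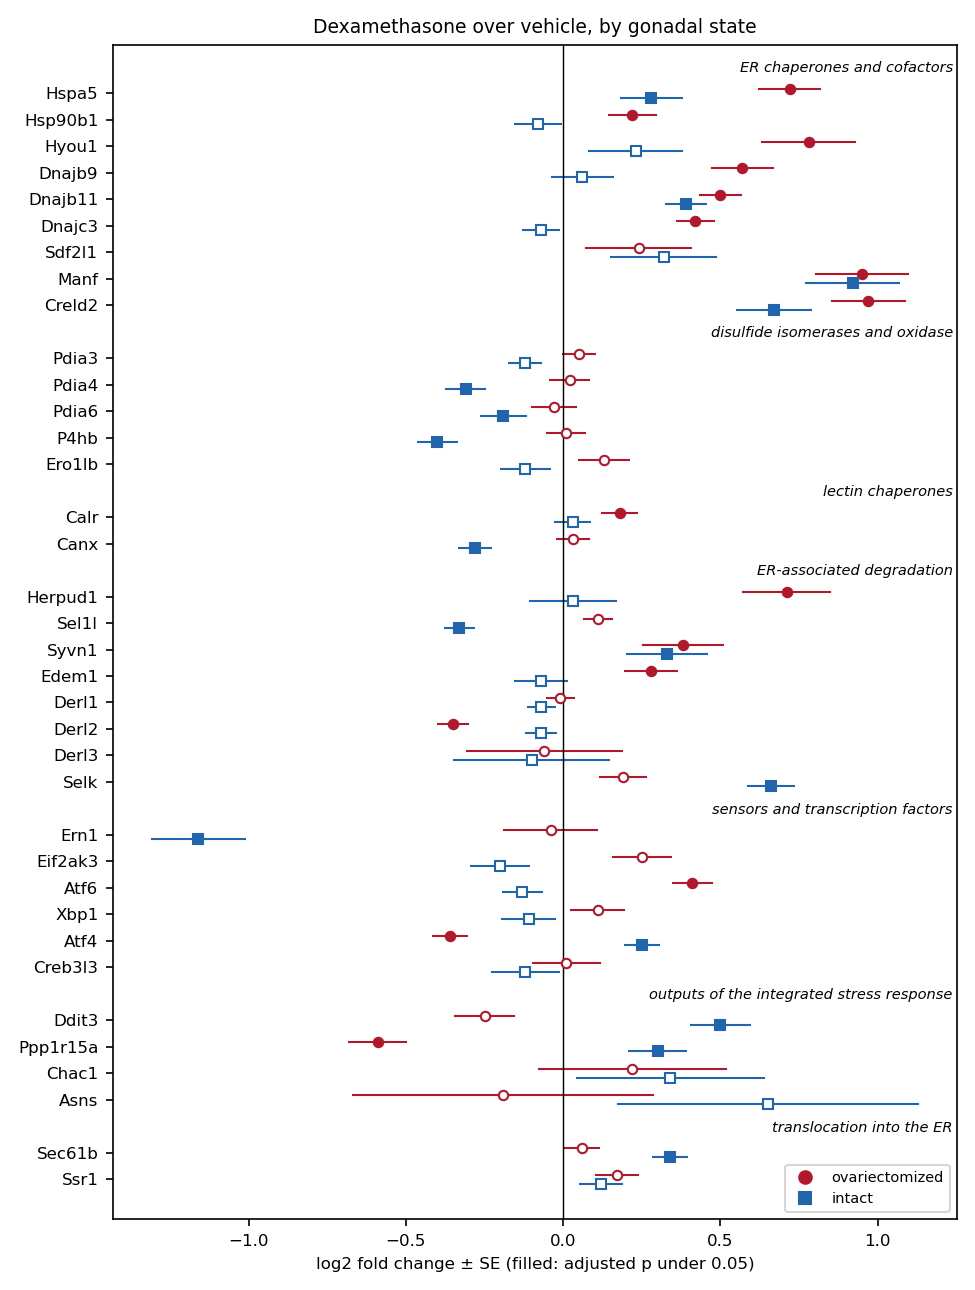
Log2 fold change with dexamethasone over vehicle for the 36 members (± SE, n = 3 libraries per group), by role, in ovariectomized females (red circles) and intact females (blue squares). Filled symbols passed at an adjusted p under 0.05: chaperones lie to the right of 0 in ovariectomized females, while the isomerases and Ern1 lie to the left in intact females.

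The disulfide isomerases behaved otherwise. These enzymes make and reshuffle the disulfide bonds of secreted proteins, and Ero1lb encodes the oxidase that recharges them. In ovariectomized females 0 of 5 rose and 0 fell with dexamethasone, with a median of 0.02. In intact females 0 rose and 3 fell, against a background of 25.9% falling. P4hb, protein disulfide isomerase itself, was at 15.32, 15.29 and 15.39 in ovariectomized dexamethasone livers, against 15.25, 15.33 and 15.38 in ovariectomized vehicle livers. In intact dexamethasone livers it was at 15.11, 15.09 and 15.04, against 15.44, 15.54 and 15.45 in intact vehicle livers. Only the intact groups were separate: P4hb fell there by 0.40 (-0.40 ± 0.064, limma adjusted p = 0.00043), while the ovariectomized estimate was 0.01 ± 0.064 with an interval of -0.13 to 0.15. The responses differed by 0.40 ± 0.091, limma adjusted p = 0.0088, ovariectomized minus intact, a call kept in every alternative fit.

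Pdia4, an isomerase with several thioredoxin-like domains, had 12.03, 11.91 and 12.02 in intact dexamethasone livers, against 12.22, 12.33 and 12.34 in intact vehicle livers. It fell (-0.31 ± 0.065, limma adjusted p = 0.00227), and in ovariectomized females its difference was 0.02 ± 0.065. Pdia6, a further isomerase, fell by a smaller amount (-0.19 ± 0.074, limma adjusted p = 0.0465), a call lost in 9 of 12 fits without 1 library and at -0.07 (adjusted p = 0.493) under quantile normalization. Pdia3, which works with the lectin chaperones, did not pass in intact (-0.12 ± 0.054) or ovariectomized females (0.05 ± 0.054). Ero1lb likewise did not pass, at 0.13 ± 0.082 in ovariectomized and -0.12 ± 0.082 in intact females.

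The lectin chaperones calreticulin (Calr) and calnexin (Canx) hold glycoproteins during folding. Calr was at 14.41, 14.25 and 14.35 in ovariectomized dexamethasone livers, against 14.15, 14.11 and 14.20 in ovariectomized vehicle livers. The rise was small (0.18 ± 0.059, limma adjusted p = 0.0267) and lost in 4 of 12 fits without 1 library and under quantile normalization (0.09, adjusted p = 0.306). Canx was at 12.91, 12.90 and 13.04 in intact dexamethasone livers, against 13.26, 13.17 and 13.26 in intact vehicle livers. It fell there (-0.28 ± 0.054, limma adjusted p = 0.00115), but under quantile normalization the value was -0.10 with an adjusted p of 0.196. In the other gonadal state Calr (intact, 0.03 ± 0.059) and Canx (ovariectomized, 0.03 ± 0.054) did not pass.

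Of the 8 members of ER-associated degradation, which returns misfolded protein to the cytosol for destruction, 3 rose and 1 fell in ovariectomized females, and 2 rose and 1 fell in intact females. As shares these were 37.5% and 12.5% in ovariectomized females, against 21.3% and 19.4% of genes tested, and 25% and 12.5% in intact females, against 22.8% and 25.9%. Herpud1, an ER membrane protein that joins the degradation complex, was at 14.09, 13.58 and 13.95 in ovariectomized dexamethasone livers, against 13.11, 13.28 and 13.11 in ovariectomized vehicle livers. In intact females it was at 13.31, 13.19 and 13.51 with dexamethasone, against 13.57, 13.17 and 13.17 with vehicle. It rose in the ovariectomized groups, which did not overlap (0.71 ± 0.14, limma adjusted p = 0.00199), and its intact difference was 0.03 ± 0.14 with an interval of -0.27 to 0.33.

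Syvn1 encodes the ubiquitin ligase Hrd1, and Sel1l its scaffold partner. Syvn1 rose in ovariectomized (0.38 ± 0.13, limma adjusted p = 0.0306) and intact females (0.33 ± 0.13, limma adjusted p = 0.0476), calls that were lost in 4 and 8 of 12 fits without 1 library. In ovariectomized females its groups overlapped, with a lowest dexamethasone library of 11.57 and a highest vehicle library of 11.62. That call was also lost in a fit of only the libraries compared (limma adjusted p = 0.0523). Sel1l was at 11.63, 11.67 and 11.69 in intact dexamethasone livers, against 12.08, 11.91 and 12 in intact vehicle livers. It fell there (-0.33 ± 0.048, limma adjusted p = 0.000195), and in ovariectomized females it differed by 0.11 ± 0.048, limma adjusted p = 0.0942, so the partner genes did not move together in intact livers. Edem1, which directs mannose-trimmed glycoproteins to degradation, rose in ovariectomized females (0.28 ± 0.086, limma adjusted p = 0.0205). Its groups overlapped there, with a lowest dexamethasone library of 12.27 and a highest vehicle library of 12.29. The call was lost in 3 of 12 fits without 1 library and under quantile normalization (0.22, adjusted p = 0.0572). Edem1 did not pass in intact females (-0.07 ± 0.086).

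The derlins form part of the exit channel. Derl2 was at 11.09, 11.02 and 11.13 in ovariectomized dexamethasone livers, against 11.40, 11.43 and 11.46 in ovariectomized vehicle livers, where it fell (-0.35 ± 0.05, limma adjusted p = 0.000278). In intact females it differed by -0.07 ± 0.05 and did not pass. Derl1 and Derl3 did not pass in either state. Derl1 had narrow intervals (-0.11 to 0.09 in ovariectomized, -0.17 to 0.03 in intact females), and those of Derl3 were wide (-0.60 to 0.48 and -0.64 to 0.44 in ovariectomized and then intact females). Selk, a selenoprotein of the ER membrane, had 10.85, 10.63 and 10.82 in intact dexamethasone livers, against 10.15, 10.12 and 10.05 in intact vehicle livers. It rose clearly there (0.66 ± 0.076, limma adjusted p = 4.86e-05, 1.58-fold), with 0.19 ± 0.076, limma adjusted p = 0.0693 in ovariectomized females.

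**Figure D3:**
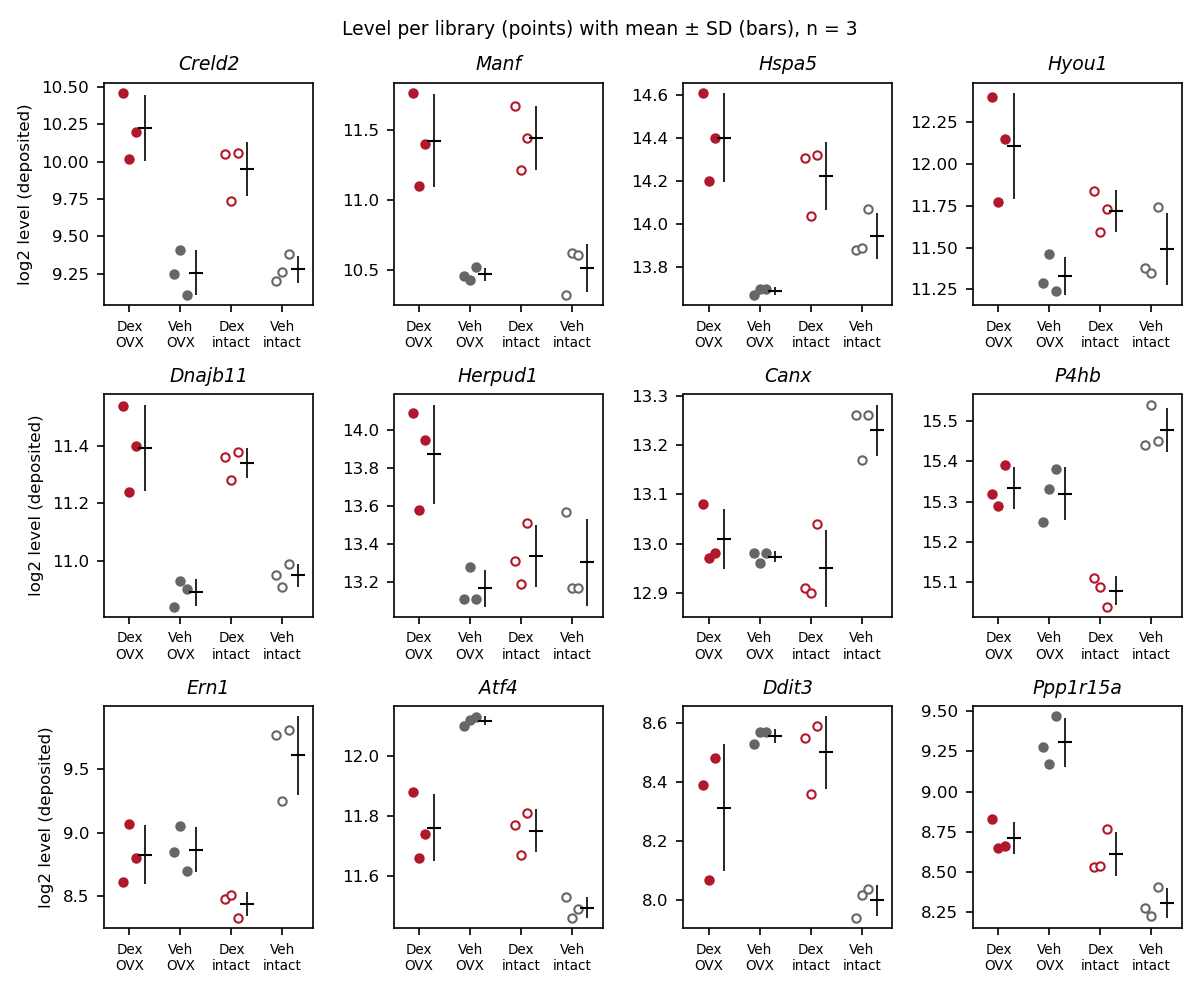
Log2 levels as deposited of 12 members in each library (points) with the group mean ± SD beside them (n = 3), for the 4 groups in the order dexamethasone and vehicle ovariectomized, then dexamethasone and vehicle intact. Creld2, Manf and Dnajb11 are higher with dexamethasone in each gonadal state, Ern1 stands highest in intact vehicle livers, and Atf4 and Ppp1r15a stand highest in ovariectomized vehicle livers.

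Among the sensors, Ern1 (IRE1) had the largest difference of the 36 in intact females. Its levels were 8.48, 8.51 and 8.33 in intact dexamethasone livers, against 9.76, 9.25 and 9.80 in intact vehicle livers. It fell to 0.447 of the vehicle level (-1.16 ± 0.15, limma adjusted p = 0.000107) with no overlap. In ovariectomized females the levels were 8.61, 9.07 and 8.80 with dexamethasone, against 8.85, 9.05 and 8.70 with vehicle. Those groups overlapped fully (-0.04 ± 0.15, limma adjusted p = 0.867), and the responses differed by 1.13 ± 0.21, limma adjusted p = 0.00377. Intact vehicle livers lay highest, between 9.25 and 9.80, and intact dexamethasone livers lowest, between 8.33 and 8.51, with the ovariectomized libraries of both treatments between 8.61 and 9.07.

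Atf6 moved in the ovariectomized comparison. It was at 11.13, 11.06 and 11.02 in ovariectomized dexamethasone livers, against 10.64, 10.74 and 10.60 in ovariectomized vehicle livers, and rose (0.41 ± 0.065, limma adjusted p = 0.000568). In intact females the difference was -0.13 ± 0.065, limma adjusted p = 0.111. The test of the responses gave 0.54 ± 0.091, limma adjusted p = 0.00218 in ovariectomized minus intact females. Eif2ak3 (PERK) did not pass in ovariectomized (0.25 ± 0.095, limma adjusted p = 0.0574) or intact females (-0.20 ± 0.095, limma adjusted p = 0.0948), with estimates of opposite sign. Xbp1 did not pass at the gene level (0.11 ± 0.088 in ovariectomized, -0.11 ± 0.088 in intact females), which says nothing of its spliced form. Creb3l3, a liver transcription factor anchored in the ER membrane, did not pass either (0.01 ± 0.11 and -0.12 ± 0.11, again ovariectomized and then intact).

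Atf4 and Ppp1r15a were the members that passed in opposite directions in ovariectomized and intact females. Atf4, the transcription factor made when PERK is active, stood at 11.88, 11.66 and 11.74 in ovariectomized dexamethasone livers, against 12.10, 12.12 and 12.13 in ovariectomized vehicle livers, and fell (-0.36 ± 0.058, limma adjusted p = 0.00069). It stood at 11.77, 11.67 and 11.81 in intact dexamethasone livers, against 11.53, 11.46 and 11.49 in intact vehicle livers, and rose (0.25 ± 0.058, limma adjusted p = 0.00371). The dexamethasone libraries of both gonadal states lay in one range, 11.66 to 11.88, between the intact and the ovariectomized vehicle libraries. The intact rise was at 0.16 with an adjusted p of 0.0502 once trends on transcript length and GC content were removed.

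Ppp1r15a, whose product GADD34 reverses the translational block set by PERK, repeated this arrangement. It had 8.83, 8.65 and 8.66 in ovariectomized dexamethasone livers, against 9.28, 9.17 and 9.47 in ovariectomized vehicle livers (-0.59 ± 0.094, limma adjusted p = 0.000581). In intact females it had 8.53, 8.54 and 8.77 with dexamethasone, against 8.28, 8.23 and 8.41 with vehicle (0.30 ± 0.094, limma adjusted p = 0.0193). The ovariectomized fall held in every alternative, while the intact rise was lost in 3 of 12 fits without 1 library and at 0.25 (adjusted p = 0.0525) with length and GC trends removed. Ddit3 encodes CHOP, a transcription factor tied to cell death under lasting stress. It was at 8.55, 8.36 and 8.59 in intact dexamethasone livers, against 7.94, 8.02 and 8.04 in intact vehicle livers, and rose (0.50 ± 0.098, limma adjusted p = 0.00145). In ovariectomized livers it was at 8.39, 8.07 and 8.48 with dexamethasone, against 8.53, 8.57 and 8.57 with vehicle. These groups were separate by a narrow gap, and the difference missed the threshold (-0.25 ± 0.098, limma adjusted p = 0.0634).

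Chac1, a glutathione-degrading enzyme, and Asns, asparagine synthetase, are classical ATF4 targets and did not pass in either state. Chac1 differed by 0.22 ± 0.3 in ovariectomized and 0.34 ± 0.3 in intact females. Asns differed by -0.19 ± 0.48 in ovariectomized and 0.65 ± 0.48 in intact females, where 1 dexamethasone library was at 8.58 and the others at 6.73 and 6.04. Their intervals were wide (-0.31 to 0.99 for Chac1 and -0.40 to 1.70 for Asns in intact females), so changes of moderate size were not detectable in either gene.

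Sec61b, a subunit of the channel that passes new proteins into the ER, was at 10.28, 10.15 and 10.23 in intact dexamethasone livers, against 9.85, 9.88 and 9.91 in intact vehicle livers. It rose (0.34 ± 0.058, limma adjusted p = 0.000571), but with trends on length and GC content removed the value was 0.11 with an adjusted p of 0.132. In ovariectomized females it differed by 0.06 ± 0.058. Ssr1, a subunit of the translocon-associated complex, did not pass in ovariectomized (0.17 ± 0.07, limma adjusted p = 0.0682) or intact females (0.12 ± 0.07, limma adjusted p = 0.175). At most 15.3% of the 50-base words of any member (Sec61b) occurred in another gene, so shared sequence is limited for all 36.

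Of the 10 members whose window held the CCAAT pair, 6 rose and 0 fell with dexamethasone in ovariectomized females (median 0.20), and of the 22 with a window but no pair 4 rose and 3 fell (median 0.08). In intact females 3 of the 10 rose and 2 fell (median -0.08), and 6 of the 22 rose and 4 fell (median 0.04). Over all genes tested 21.3% rose and 19.4% fell in ovariectomized females, and 22.8% and 25.9% in intact females, so the intact counts lie near the background. These counts are a description and were not tested. Members without a window are in neither count, among them Manf (0.95), Hyou1 (0.78) and Atf6 (0.41), which rose in ovariectomized females. Pdia6, Canx, Ero1lb and Derl3 held the pair and did not rise in ovariectomized females, while Dnajb9, Dnajb11, Herpud1 and Edem1 rose without it.

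The response to dexamethasone itself differed between gonadal states for 18 of the 36 members, or 50%, against a background of 24.9% of genes tested. For 12 of 36 members (33.3%) the response was higher in ovariectomized than in intact females, and for 6 (16.7%) it was lower, against a background of 15.3% and 9.65%. The median difference of responses was 0.17, against 0.01 over all genes. The count of higher responses was 6 in place of 12 under quantile normalization or without intact dexamethasone replicate 2, and 7 without intact vehicle replicate 1 or 3. Dnajc3 (0.49 ± 0.087, limma adjusted p = 0.00263), P4hb, Sel1l (0.44 ± 0.067, limma adjusted p = 0.00136), Ern1 and Atf6 were higher in every alternative. Hspa5 (0.44 ± 0.15, limma adjusted p = 0.0489), Dnajb9 (0.50 ± 0.15), Herpud1 (0.68 ± 0.2) and Edem1 (0.36 ± 0.12) were called but lost in 7 to 10 of 12 fits without 1 library. Pdia4 (0.32 ± 0.091), Canx (0.32 ± 0.076) and Eif2ak3 (0.45 ± 0.13) make up the 12. Eif2ak3 was lost in 6 and Pdia4 in 2 of 12 fits without 1 library. Under quantile normalization Pdia4 was at 0.15 (adjusted p = 0.274), Canx at 0.10 (0.442), Hspa5 at 0.19 (0.418), Edem1 at 0.18 (0.313), Herpud1 at 0.44 (0.136) and Dnajb9 at 0.39 (0.082), all no longer called.

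The lower responses in ovariectomized females were led by Ppp1r15a (-0.89 ± 0.13, limma adjusted p = 0.00126), Ddit3 (-0.74 ± 0.14, limma adjusted p = 0.00347) and Atf4 (-0.61 ± 0.083, limma adjusted p = 0.000813). Selk (-0.47 ± 0.11, limma adjusted p = 0.00903) and Derl2 (-0.28 ± 0.07, limma adjusted p = 0.0139) followed, and all 5 kept their call in every alternative. Sec61b (-0.28 ± 0.082, limma adjusted p = 0.0268) was lost in 5 of 12 fits without 1 library, and was at -0.02 with length and GC trends removed. Neither Manf (0.03 ± 0.22, interval -0.45 to 0.50) nor Creld2 (0.30 ± 0.17, interval -0.08 to 0.67) passed this test, and those intervals still allow sizeable differences. The same ovariectomized vehicle libraries enter this test, dexamethasone in ovariectomized females and ovariectomy under vehicle. The difference of responses also equals the gonadal difference under dexamethasone minus the one under vehicle, so calls in these comparisons are not independent.

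Ovariectomy alone, seen in vehicle livers, came with higher Atf4, Ddit3 and Ppp1r15a and lower levels of the 3 sensors. Over the members 5 rose (13.9%) and 8 fell (22.2%), against a background of 12.4% and 15.5%, with a median of -0.08. The groups did not overlap for 9 members upward and 15 downward, against 20.7% and 24.4% of genes tested. Ppp1r15a had 9.28, 9.17 and 9.47 in ovariectomized vehicle livers, against 8.28, 8.23 and 8.41 in intact vehicle livers. That was the largest difference of the members (1.00 ± 0.094, limma adjusted p = 0.000126, 1.99-fold). Atf4 rose by 0.62 ± 0.058, limma adjusted p = 0.000123, its 6 libraries falling into separate ranges of 12.10 to 12.13 in ovariectomized and 11.46 to 11.53 in intact livers. Ddit3 rose by 0.56 ± 0.098, limma adjusted p = 0.00227, also without overlap. These 3 kept their calls in every alternative, and without ovariectomized vehicle replicate 3 they were the 3 members called higher.

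All 3 sensors fell with ovariectomy in vehicle livers. Ern1 had 8.85, 9.05 and 8.70 in ovariectomized vehicle livers, against 9.76, 9.25 and 9.80 in intact vehicle livers (-0.73 ± 0.15, limma adjusted p = 0.00492). Atf6 fell by 0.34 (-0.34 ± 0.065, limma adjusted p = 0.00338) and Eif2ak3 by 0.31 (-0.31 ± 0.095, limma adjusted p = 0.0286), a call lost in 4 of 12 fits without 1 library. Dnajc3 (-0.37 ± 0.061, limma adjusted p = 0.00175), Pdia4 (-0.29 ± 0.065, limma adjusted p = 0.00781), Sel1l (-0.33 ± 0.048, limma adjusted p = 0.000941) and Canx (-0.26 ± 0.054, limma adjusted p = 0.00501) fell as well. With length and GC trends removed Canx was at -0.13 (adjusted p = 0.0655) and Eif2ak3 at -0.25 (adjusted p = 0.0744), no longer called. Edem1 (-0.26 ± 0.086, lower) and Derl2 (0.18 ± 0.05, higher) were called but lost in 7 and 3 of 12 fits without 1 library. Sec61b was called higher (0.21 ± 0.058, limma adjusted p = 0.0199) but changed sign, to -0.05, with length and GC trends removed. Hspa5, at -0.26 ± 0.1, limma adjusted p = 0.0844, did not pass.

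Across all genes the ovariectomized minus intact difference under vehicle followed transcript length (Spearman's rho -0.37 over 12898 genes, a description) and GC content (rho 0.33). For dexamethasone in intact females the rho with length was -0.25, and in ovariectomized females 0.066. For the difference of responses the rho was 0.31 with length and -0.24 with GC content. With both trends removed, Hspa5 (0.35, limma adjusted p = 0.106) and Edem1 (0.18, limma adjusted p = 0.325) lost their call for the difference of responses. So did Eif2ak3 (0.37, limma adjusted p = 0.0648) and Sec61b (-0.02, limma adjusted p = 0.863). With both trends removed 4 members were higher and 6 lower with ovariectomy under vehicle, and the Atf4, Ddit3, Ppp1r15a, Ern1 and Atf6 calls held. Markers of Kupffer cells and macrophages were lower with ovariectomy too, 6 of 9 under vehicle (median -0.39) and 5 of 9 under dexamethasone (median -0.35). None were higher in either, and over all genes tested 15.5% and 5.08% were lower. Their summed log2 levels were 13.46 to 13.70 in ovariectomized vehicle livers, against 13.91 to 13.98 in intact vehicle livers, and their part in the members' differences was not tested.

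**Figure D4:**
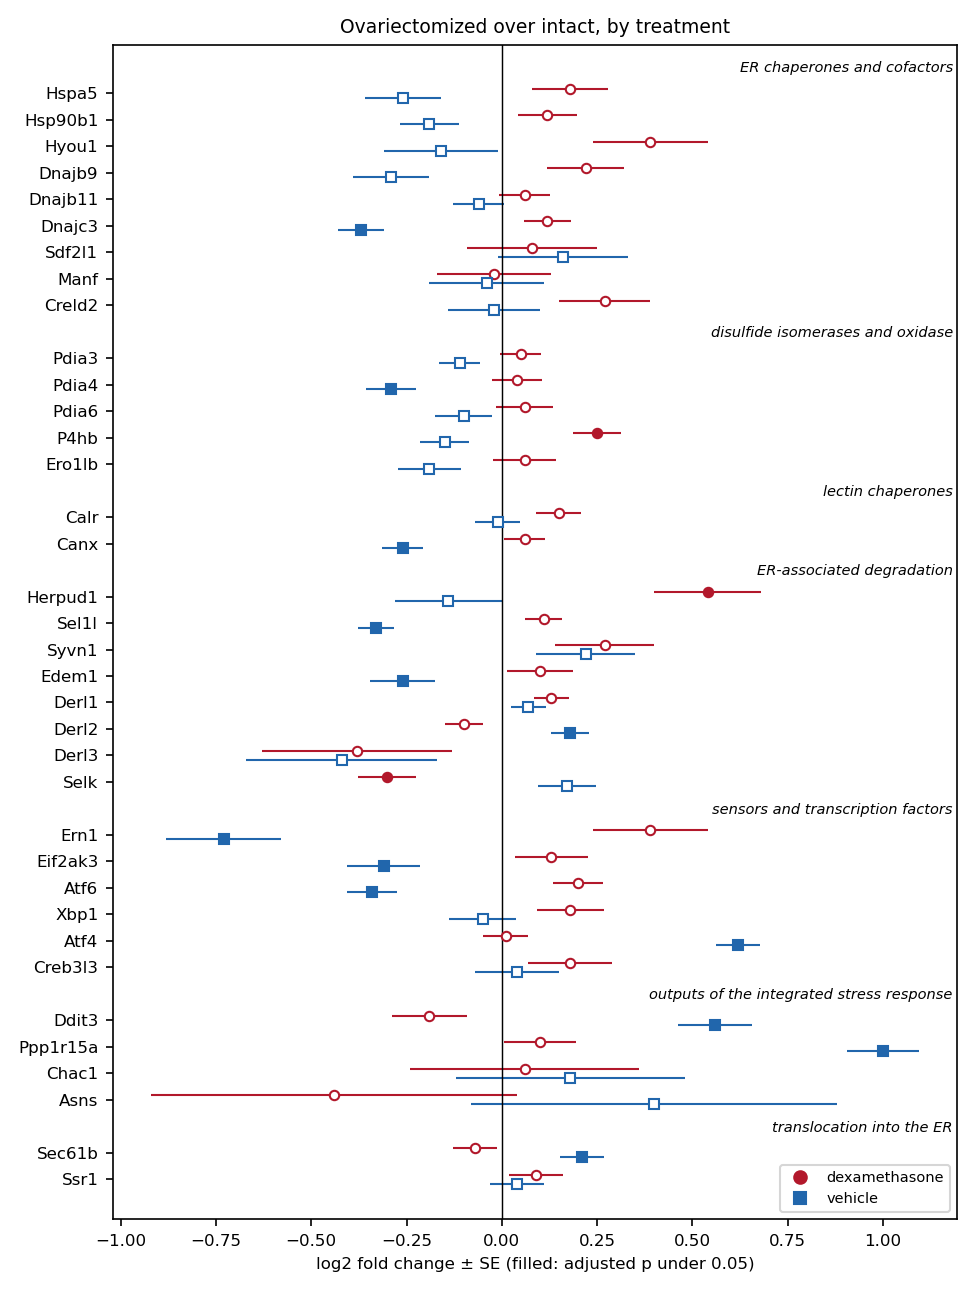
Log2 fold change of ovariectomized over intact females for the 36 members (± SE, n = 3 libraries per group), under dexamethasone (red circles) and under vehicle (blue squares). Filled symbols passed at an adjusted p under 0.05, 3 members under dexamethasone and 13 under vehicle.

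Under dexamethasone the gonadal groups lay closer. Of the members 2 were higher (5.56%) and 1 was lower (2.78%) in ovariectomized livers, against a background of 7.74% and 5.08%, and the median was 0.10. The groups did not overlap for 6 members upward and 2 downward, against 19.5% and 14.6% of genes tested. Herpud1 (0.54 ± 0.14, limma adjusted p = 0.0309) and P4hb (0.25 ± 0.064, limma adjusted p = 0.0309) were higher and Selk (-0.30 ± 0.076, limma adjusted p = 0.0289) lower, and each of the 3 calls was lost in some alternatives. Leaving out any 1 of the ovariectomized dexamethasone replicates 1 and 3 or the intact dexamethasone replicates 1 and 2 left 0 members higher. The number was 1 without intact dexamethasone replicate 3 and 4 without intact vehicle replicate 2. Selk was no longer called without any 1 of the ovariectomized dexamethasone libraries or the intact dexamethasone replicates 1 and 3. Atf4 (0.01 ± 0.058, interval -0.12 to 0.14) was bounded near 0. Ppp1r15a (0.10 ± 0.094, interval -0.10 to 0.31) did not pass, with an interval that allows a difference of up to 0.31. The median absolute gonadal difference of the members was 0.126 under dexamethasone and 0.189 under vehicle. Over all genes it was 0.131 and 0.16, so it was smaller under dexamethasone there as well.

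The other genes of the pathway, 164 tested in 8 lists that hold none of the members, were counted the same way. They were counted in the main fit only and not in the alternatives. In ovariectomized females 65 rose with dexamethasone (39.6%) and 17 fell (10.4%), against backgrounds of 21.3% and 19.4%. In intact females 35 rose (21.3%) and 42 fell (25.6%), near the backgrounds of 22.8% and 25.9%. Transport from the ER to the Golgi, the next step for secreted protein, was the most one-sided list in ovariectomized females, with 16 of 24 higher and 0 lower (median 0.29). In intact females 7 rose and 5 fell (median 0.01). Sec24d, a cargo-binding subunit of the COPII coat, had 11.20, 11.23 and 11.22 in ovariectomized dexamethasone livers, against 10.19, 10.20 and 10.10 in ovariectomized vehicle livers (1.06 ± 0.063, limma adjusted p = 1.11e-06). Its intact difference was 0.10 ± 0.063, and the responses differed by 0.95 ± 0.089, limma adjusted p = 0.000158. Sec23b (0.78 ± 0.11), its coat partner, and the fusion protein gene Sec22b (0.65 ± 0.061) rose in ovariectomized females too. For 12 of the 24 the response was higher in ovariectomized females and for 0 lower, against backgrounds of 15.3% and 9.65%.

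Protein translocation and signal peptide cleavage had 11 of 21 higher (52.4%) and 0 lower in ovariectomized females, against backgrounds of 21.3% and 19.4%. In intact females 6 were higher (28.6%) and 4 lower (19%), against backgrounds of 22.8% and 25.9%. Srpr, the receptor for the signal recognition particle, rose in ovariectomized (0.25 ± 0.044) and fell in intact females (-0.34 ± 0.044). N-glycosylation genes had 7 of 21 higher (33.3%) and 0 lower in ovariectomized females, and 3 higher (14.3%) and 6 lower (28.6%) in intact females. The mannosyltransferase gene Alg12 rose in both (0.69 ± 0.13 and 0.51 ± 0.13, ovariectomized and then intact). Other chaperones, cofactors and prolyl isomerases had 8 of 19 higher (42.1%) and 1 lower (5.26%) in ovariectomized females. In intact females 7 were higher (36.8%) and 3 lower (15.8%). Hspa13, an Hsp70-like gene, rose in ovariectomized females (0.49 ± 0.1) and was at 0.00 ± 0.1 in intact females.

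Other oxidative folding genes resembled the isomerase members in intact females, with 1 of 13 higher (7.69%) and 5 lower (38.5%). The backgrounds there were 22.8% and 25.9%. In ovariectomized females 3 were higher (23.1%) and 2 lower (15.4%), near the backgrounds of 21.3% and 19.4%. Pdia5 fell in ovariectomized (-0.63 ± 0.092, limma adjusted p = 0.00034) and intact females (-0.66 ± 0.092, limma adjusted p = 0.000171), and Txndc5 fell in intact females (-0.50 ± 0.074, limma adjusted p = 0.000237). Other ER-associated degradation genes had 7 of 24 higher (29.2%) and 4 lower (16.7%) in ovariectomized females. In intact females 2 were higher (8.33%) and 9 lower (37.5%). The ubiquitin-conjugating enzyme gene Ube2g2 rose in both (1.11 ± 0.13 and 0.72 ± 0.13, ovariectomized and then intact). Erlin1, an ER membrane prohibitin-domain protein, fell in both (-0.79 ± 0.071 and -0.94 ± 0.071).

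Other regulators of the unfolded protein response had 6 of 14 higher (42.9%) and 3 lower (21.4%) in ovariectomized females. In intact females 4 were higher (28.6%) and 7 lower (50%). Atf6b, the relative of Atf6, rose in ovariectomized (0.76 ± 0.091) and intact females (0.39 ± 0.091). Creb3l2, another membrane-bound factor, rose in ovariectomized (0.35 ± 0.089) and fell in intact females (-0.46 ± 0.089), with a difference of responses of 0.82 ± 0.13, limma adjusted p = 0.00141. Other ATF4 targets had 7 of 28 higher (25%) and 7 lower (25%) in ovariectomized females, near the backgrounds of 21.3% and 19.4%. In intact females 5 were higher (17.9%) and 3 lower (10.7%), below the backgrounds of 22.8% and 25.9%.

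Of these targets, Atf3 and Nupr1, stress factors downstream of ATF4, were higher with ovariectomy under vehicle and lower with dexamethasone in ovariectomized females. Both comparisons use the same ovariectomized vehicle libraries. Atf3 had 7.93, 7.40 and 8.08 in ovariectomized vehicle livers, against 6.01, 6.05 and 6.04 in intact vehicle livers (1.77 ± 0.31, limma adjusted p = 0.00233). With dexamethasone Atf3 fell in ovariectomized females (-1.41 ± 0.31, limma adjusted p = 0.00406) and did not pass in intact females (0.57 ± 0.31). Nupr1 was higher with ovariectomy under vehicle (1.17 ± 0.28, limma adjusted p = 0.0104), with uneven libraries. It had 7.14, 7.67 and 6.25 in ovariectomized vehicle livers, against 5.82, 5.77 and 5.95 in intact vehicle livers. With dexamethasone Nupr1 fell in ovariectomized females (-1.28 ± 0.28, limma adjusted p = 0.00384) and did not pass in intact females (0.33 ± 0.28). Trib3, a pseudokinase induced by CHOP, fell in ovariectomized females (-1.06 ± 0.24, limma adjusted p = 0.00438). Ddit4, an inhibitor of mTORC1 and also a known glucocorticoid target, rose in ovariectomized (2.39 ± 0.38, limma adjusted p = 0.00059) and intact females (1.62 ± 0.38, limma adjusted p = 0.00443). Of the 28, 3 rose (10.7%) and 1 fell (3.57%) with ovariectomy under vehicle, below the backgrounds of 12.4% and 15.5%, and 24 did not pass. The members Chac1 and Asns did not pass in that comparison either. The list median was 0.20, in the direction of Atf4, against -0.01 over all genes.

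**Figure D5:**
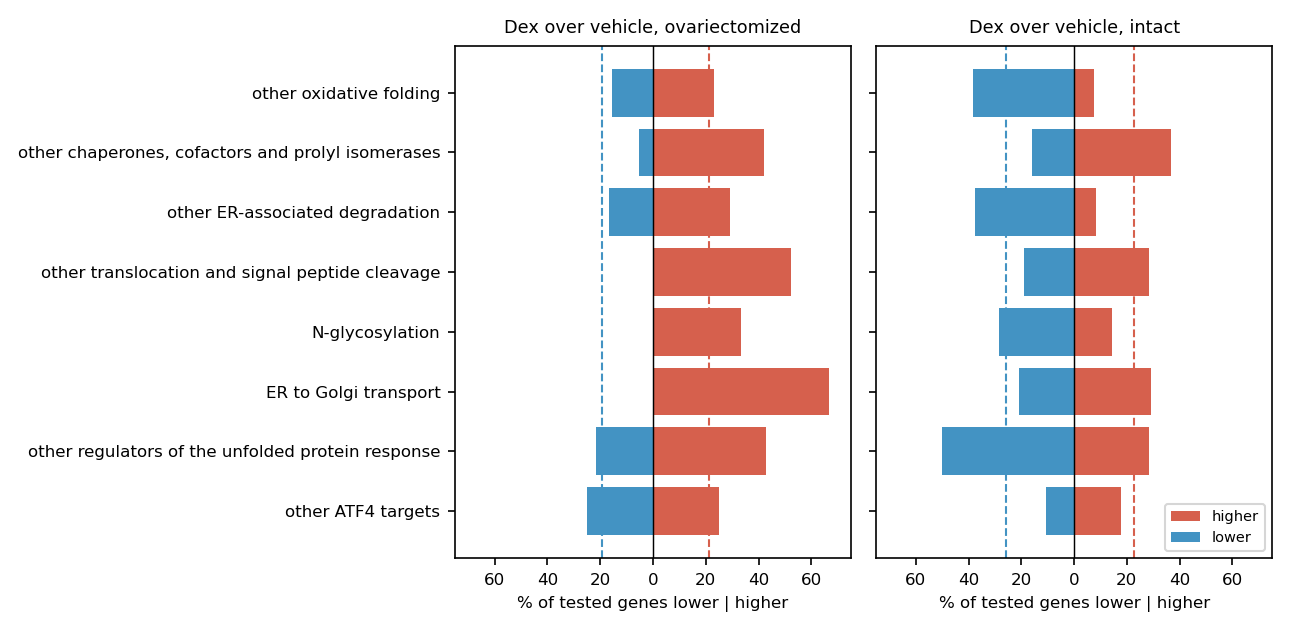
Share of the tested genes of 8 further pathway lists that passed as higher (right of 0) or lower (left of 0) with dexamethasone over vehicle, in ovariectomized females (left panel) and intact females (right panel). Dashed lines give the share of all genes tested, 21.3% higher and 19.4% lower in ovariectomized, and 22.8% and 25.9% in intact females. In ovariectomized females 3 lists have no lower gene, and ER to Golgi transport reaches 66.7% higher.

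Markers of other liver cells moved with dexamethasone as well. Over all genes tested 21.3% rose and 19.4% fell in ovariectomized females, and 22.8% and 25.9% in intact females. At these shares a list of a few genes is likely to hold some calls. All 6 B cell markers tested fell in each gonadal state. Summed log2 levels over 8 B cell markers, untested ones included, were 7.59 to 7.64 in ovariectomized dexamethasone livers, against 8.24 to 8.53 in ovariectomized vehicle livers. In intact females the sums were 7.77 to 7.89 with dexamethasone, against 8.23 to 8.66 with vehicle. Of 5 markers of plasma cells, which are rich in ER, 0 rose and 2 fell in ovariectomized females, and 1 rose and 1 fell in intact females. Sdc1 was at 12.38 to 12.98 and the other 4 between 3.59 and 5.36, so a sum over this list is carried by Sdc1 and is not given. Of 9 Kupffer cell and macrophage markers 0 rose and 3 fell (33.3%) in each gonadal state. Of 7 markers of sinusoidal endothelium 2 rose and 3 fell in ovariectomized females, and 3 rose and 1 fell in intact females. Cholangiocyte markers had 0 of 5 higher and 2 lower in ovariectomized females, and 1 higher and 0 lower in intact females, and of 5 T and NK cell markers 0 passed in either. Of 9 stellate cell and fibroblast markers 2 rose in ovariectomized and 7 in intact females, with sums of 13.82 to 13.91 in intact dexamethasone livers, against 13.10 to 13.47 in intact vehicle livers. Of 3 neutrophil markers, 3 fell in ovariectomized females and 0 passed in intact females. In ovariectomized females the sums over 5 neutrophil markers, untested ones included, were 6.82 to 6.98 with dexamethasone, against 7.56 to 7.90 with vehicle. Hepatocyte markers had 3 of 8 higher and 0 lower in ovariectomized, and 2 higher and 0 lower in intact females. The part of these cell types in the members' changes was not tested.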

How the data were processed

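RNA from 12 liver libraries was extracted with TRIzol and made into Illumina TruSeq libraries, per the labels' protocols. The authors used Trim Galore, TopHat2, HTSeq, DESeq2 and DESeq with mouse build mm9, and no versions are stated, per the submitters' processing notes. The authors deposited a single table of normalized log2 expression, per the labels. Its transformation and annotation, and any use of strand in counting, were not given in the sources used here. Because read depth is not held in such values, no counting interval is printed, and fold changes of low genes may be understated. The table ran from -2.22 to 22.03, and 6294 of its 24962 entries were at 0 throughout. Where a symbol had several entries (392 symbols), that with the highest mean was kept.

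Genes with a mean of 4 or more were fitted in limma 3.58.1 under R 4.3.3 (lmFit, eBayes with trend, 4 groups, 8 residual degrees of freedom), and p-values were adjusted by Benjamini-Hochberg over all 12965. The fit was tested on simulated data. All 36 members are named. From each further list up to 4 genes that passed in a comparison could be named, by absolute log2 fold change. The members and lists were chosen with earlier results of these data known. The promoter word pairs were counted after a first look at known elements, so the pair found is not an independent discovery. Besides leaving out each library, 8 alternatives were run: no filter, a minimum mean of 6, 8 added on the linear scale, recentring, quantile normalization, a fit of only the libraries compared, a replicate block and, chosen after seeing the data, removal of trends on transcript length and GC content (splines with 4 degrees of freedom, 99.5% of genes matched to GRCm38 transcripts). Only the members were followed through the alternatives, so calls of other pathway genes and cell type markers rest on the main fit.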

Additional observations from a re-analysis of the deposited data

Results flagged for a closer look

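The response of 18 members to dexamethasone differed between ovariectomized and intact females by the test of the difference itself, against 24.9% of all genes tested. The log2 difference, ovariectomized minus intact, was 1.13 for Ern1, 0.68 for Herpud1, 0.54 for Atf6, 0.50 for Dnajb9, 0.49 for Dnajc3, 0.45 for Eif2ak3, 0.44 for Hspa5, 0.44 for Sel1l, 0.40 for P4hb, 0.36 for Edem1, 0.32 for Pdia4 and 0.32 for Canx. It was -0.89 for Ppp1r15a, -0.74 for Ddit3, -0.61 for Atf4, -0.47 for Selk, -0.28 for Derl2 and -0.28 for Sec61b. Ern1, Atf6, Dnajc3, Sel1l, P4hb, Ppp1r15a, Ddit3, Atf4, Selk and Derl2 kept this call in every alternative, and the other 8 lost it in at least 1.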

How the results depend on the processing

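Of the calls among members, 12 of 16 were kept in every alternative for dexamethasone in ovariectomized females, 9 of 16 in intact females, 8 of 13 for ovariectomy under vehicle, 0 of 3 under dexamethasone and 10 of 18 for the difference of responses. With ovariectomy under dexamethasone, quantile normalization gave 0 members higher and 2 lower in place of 2 and 1, and a fit of only the libraries compared gave 0 and 0. Members with a higher response in ovariectomized females numbered 6 under quantile normalization, in place of 12. One call changed sign: Sec61b with ovariectomy under vehicle was at -0.05 with length and GC trends removed. The cause was not tested for any of these. Leaving out 1 library gave 9 to 17 members higher and 3 to 4 lower with dexamethasone in ovariectomized females, and 7 to 11 and 5 to 7 in intact females. It gave 3 to 5 and 6 to 10 for ovariectomy under vehicle, 0 to 4 and 0 to 1 under dexamethasone, and 6 to 13 and 5 to 6 for the difference of responses. Correlations of deviations between libraries of the same replicate number ran from -0.231 to 0.396, with 6 of 18 above 0.1. The highest was between replicate 2 of the ovariectomized and replicate 2 of the intact dexamethasone libraries. Replicate number was not used as a pairing in the main fit. With the replicate number as a block the counts were 14 higher and 4 lower for dexamethasone in ovariectomized females, 10 and 6 in intact females, 5 and 8 for ovariectomy under vehicle, 2 and 1 under dexamethasone, and 13 and 6 for the difference of responses. With 3 libraries a group, small differences were not detectable where intervals span 0.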
